A study of Homo sapiens with 15 samples.

Results

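Small nucleolar RNA (snoRNA) host genes were followed in the established human liver cancer line HepG2 after delivery of messenger RNA. The members were all rows of the count matrix whose symbol is SNHG followed by a number, together with GAS5, ZFAS1, DANCR and EPB41L4A-AS1. This gave 32 of 41412 rows. The rule reads symbols and no measured value, but it was set with earlier results of these data known. SNHG28, SNHG27 and SNHG18 had counts in only 1 library each, never more than 6, and were not tested. The other 29 members passed the filter on low counts, together with 18380 genes in all.

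Host genes of this kind are transcribed as long RNAs whose introns carry snoRNAs. The snoRNAs are cut out of the introns and guide chemical marks on ribosomal RNA: box C/D snoRNAs (SNORD) guide methylation of the ribose, and box H/ACA snoRNAs (SNORA) guide conversion of uridine to pseudouridine. Small Cajal body RNAs (SCARNA) do the same for spliceosomal RNAs. The spliced exons that are left over mostly code for no known protein. Many host genes belong to the 5′ terminal oligopyrimidine (5′TOP) class, whose transcripts begin with C followed by a run of C and T, as do those of ribosomal protein genes. Several spliced host RNAs, GAS5 among them, are substrates of nonsense-mediated decay, which degrades RNAs with an early stop codon during translation.

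Cells of genotype WT were studied in 5 groups of 3 biological replicates. The untransfected group received nothing, and each other group was given 1 µg of an mRNA for eGFP, a green fluorescent reporter, with the lipid nanoparticle reagent NanoLNP. That mRNA was non-cloaked or had been treated with the reagent CR-3: weak-cloaked (0.1 M, 0.5 h, 25 °C), medium-cloaked (0.5 M, 1 h, 30 °C) or strong-cloaked (1 M, 2 h, 37 °C). All cells were lysed after 48 h, and no group received particles without mRNA, so particle and mRNA cannot be told apart against untransfected cells. The stated purpose was to evaluate how cloaking affects expression. Poly(A) RNA of whole cultures was sequenced, so fewer cells expressing a gene and less RNA per cell cannot be told apart.

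Libraries held 57128519 to 78548789 counts. The host genes took 0.236% to 0.259% of all counts in untransfected libraries and 0.261% to 0.291% in transfected ones. One library, weak-cloaked replicate 1, did not lie with its group. On the first principal component (21.1% of variance) it lay at -51.6, near the untransfected libraries (-70.5 to -68.6), whereas the other transfected libraries lay between -7.8 and 44.1. Its TMM factor, which rescales a library total so that most genes are level between libraries, was 1.11, against 1.13 to 1.15 in untransfected and 0.923 to 1.03 in the other transfected libraries. Albumin (ALB) at 4490 to 6920 CPM and alpha-fetoprotein (AFP) at 204 to 285 CPM were present in all libraries. Of 15 hepatocyte markers, transthyretin (TTR, 3.1 to 6.88 CPM) and TM4SF4 (0.218 to 0.766 CPM) were low. Of 15 genes that mark other cell types, PTPRC of leukocytes never exceeded 8 counts and KRT5 of basal epithelia never exceeded 7. LYZ reached 1530 CPM. The summed level of the 15 was 1140 to 1570 CPM in untransfected and 899 to 1280 CPM in transfected libraries. Of the 13 tested, DES was called higher, and PDGFRB and VWF lower, in transfected cells. Their part in the results below was not tested.

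Because the 5′ end defines the 5′TOP class, the start regions of the members that the results turn on are shown first. Each is a window of 50 bases on the transcript strand, with 20 bases before a RefSeq start and 30 from it (GRCh38.p14). Capitals mark the longest unbroken run of C and T, of at least 5 bases, that comes within 10 bases of the start.
ZFAS1: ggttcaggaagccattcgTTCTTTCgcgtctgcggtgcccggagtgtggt
SNHG5: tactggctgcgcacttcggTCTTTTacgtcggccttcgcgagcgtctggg
SNHG16: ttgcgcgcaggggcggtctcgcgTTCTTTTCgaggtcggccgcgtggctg
SNHG19: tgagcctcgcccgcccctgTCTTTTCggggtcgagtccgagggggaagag
SNHG29: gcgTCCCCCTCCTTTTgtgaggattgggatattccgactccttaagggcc
SNHG32: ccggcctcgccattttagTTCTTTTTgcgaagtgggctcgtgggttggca
SNHG8: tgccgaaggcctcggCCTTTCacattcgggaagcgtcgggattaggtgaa
SNHG3: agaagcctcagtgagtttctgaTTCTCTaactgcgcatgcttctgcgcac
SNHG1: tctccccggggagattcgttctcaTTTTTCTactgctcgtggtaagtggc
SNHG20: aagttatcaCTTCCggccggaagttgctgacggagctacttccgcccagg

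These windows lie at chr20:49278622-49278671 (ZFAS1, plus strand), chr6:85678704-85678753 (SNHG5, minus), chr17:76557744-76557793 (SNHG16, plus), chr16:2155329-2155378 (SNHG19, minus) and chr17:16438967-16439016 (SNHG29, plus). The others lie at chr6:31834896-31834945 (SNHG32, plus), chr4:118278742-118278791 (SNHG8, plus), chr1:28505923-28505972 (SNHG3, plus), chr11:62855856-62855905 (SNHG1, minus) and chr17:77088623-77088672 (SNHG20, plus). SNHG1 is shown as the most abundant member not called between transfected and untransfected cells, and SNHG20 as the only one that fell. For GAS5 the RefSeq start lies 163 bases upstream of the GENCODE gene end and its window holds no run. In GENCODE release 29, 6 of 29 GAS5 transcripts begin with the bases below, shown to the 30th base with the opening run in capitals.
GAS5: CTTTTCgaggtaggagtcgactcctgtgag

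The first question was whether host gene RNA differs between transfected and untransfected cells. The 4 transfected groups, averaged, were compared with the untransfected group. Of 29 members, 10 rose and 1 fell. The increases were modest, from 1.24-fold to 1.58-fold, and included GAS5, ZFAS1 and the most abundant SNHG genes. The share that rose was 34.5%, against 10.4% of all genes tested (1906 of 18380), and the share that fell was 3.45%, against 12.7% (2336). A gene was called when its p from edgeR's quasi-likelihood test, adjusted by Benjamini-Hochberg over all genes tested, was below 0.05. The median log2 fold change was 0.33 over the 29 members and -0.053 over all genes. Members above 0 numbered 23, and 6 lay below.

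ZFAS1, an antisense RNA at the ZNFX1 promoter that carries 3 SNORDs, spans 49278178 to 49289260 on chromosome 20 (GRCh38). It had 152, 152 and 135 CPM (counts scaled to a fixed library total after TMM) in the untransfected replicates. The 12 transfected libraries ran from 184 to 258 CPM with a median of 231. All of them lay above every untransfected library. Group means were 147 ± 9.63 CPM (SD, n = 3) untransfected, 213 ± 12.2 non-cloaked, 225 ± 37.6 weak-cloaked, 244 ± 5.5 medium-cloaked and 224 ± 10.9 strong-cloaked. The log2 fold change was 0.63 ± 0.10 (SE), or 1.54-fold, with an adjusted p of 0.0014 in edgeR's quasi-likelihood test.

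GAS5, named for its rise in growth-arrested cells, hosts 10 SNORDs and 1 SNORA (chromosome 1, 173863901 to 173869045). Untransfected replicates had 162, 161 and 152 CPM. The transfected range was 176 to 258 CPM with a median of 229, and no library overlapped the untransfected group. The lowest was weak-cloaked replicate 1. GAS5 had a log2 fold change of 0.52 ± 0.10, with an adjusted p of 0.0049 in edgeR's test.

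SNHG6, the host of SNORD87 (chromosome 8, 66921690 to 66925541), had 56.6, 56.2 and 53.7 CPM in untransfected cells. The transfected libraries ran from 67.2 to 85.6 CPM with a median of 79.1, again without overlap. Its log2 fold change was 0.50 ± 0.08 (adjusted p 0.0018, edgeR). ZFAS1, SNHG6 and GAS5 were called in all 22 alternative analyses of this comparison, with adjusted p no higher than 0.010, 0.013 and 0.025.

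SNHG5, host of the SNORD50 pair (chromosome 6, 85677007 to 85678733), had 303, 293 and 237 CPM in untransfected cells. After transfection its libraries ran from 326 to 448 CPM with a median of 374, all above the untransfected group. Its log2 fold change was 0.43 ± 0.10 (adjusted p 0.01, edgeR). SNHG29, which GENCODE names LRRC75A-AS1 and which hosts 3 SNORDs (chromosome 17, 16438987 to 16470648), was the most abundant member. It had 677, 678 and 596 CPM in untransfected cells. Its transfected libraries ran from 678 to 917 CPM with a median of 850. The lowest of these, weak-cloaked replicate 1, was above the highest untransfected library by less than the 3 digits printed. The log2 fold change was 0.37 ± 0.09 (adjusted p 0.011, edgeR).

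SNHG3 hosts SNORA73A and SNORA73B, also called U17, which act in cleavage of the ribosomal RNA precursor (chromosome 1, 28505943 to 28510892). Its untransfected level was 82.9, 74.7 and 95.9 CPM. Transfected libraries ran from 84.3 to 173 CPM with a median of 136. Weak-cloaked replicate 1, at 84.3 CPM, lay inside the untransfected range and the other 11 lay above it. SNHG3 had the largest log2 fold change of the members that rose, 0.66 ± 0.16 (adjusted p 0.013, edgeR). Its exons overlap those of RCC1 on the same strand, so its counts are uncertain. SNHG8 hosts 1 SNORA (chromosome 4, 118278762 to 118279823). It had 63, 64.4 and 58.1 CPM untransfected and 64.6 to 86.3 CPM transfected, with a median of 77.1 and no overlap. Its log2 fold change was 0.32 ± 0.09 (adjusted p 0.021, edgeR).

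SNHG16, host of 3 SNORDs (chromosome 17, 76557764 to 76565348), had 314, 250 and 295 CPM in untransfected cells. In transfected cells it ran from 306 to 382 CPM with a median of 359. Weak-cloaked replicate 1 was again the lowest and lay below the highest untransfected library. This gave a log2 fold change of 0.31 ± 0.09 (adjusted p 0.024, edgeR). SNHG19, host of 1 SNORD (chromosome 16, 2154782 to 2155358), had 12.8, 11.8 and 10.9 CPM. Its transfected libraries ran from 11.7 to 20.9 CPM with a median of 16.9, and the log2 fold change was 0.50 ± 0.16 (adjusted p 0.034, edgeR). SNHG32, which GENCODE names C6orf48 and which hosts 2 SNORDs (chromosome 6, 31834916 to 31839761), had 173, 175 and 169 CPM. Weak-cloaked replicates 1 and 2, at 169 and 174 CPM, lay within the untransfected range. The third weak-cloaked library had 247 CPM, the highest of all, and the transfected median was 223 CPM. The log2 fold change was 0.31 ± 0.10 (adjusted p 0.039, edgeR), and the call was lost in 14 of 22 alternatives. SNHG19 was called in 12 of 22 and SNHG8 in 17.

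SNHG20 fell. It hosts SCARNA16, a Cajal body RNA (chromosome 17, 77088643 to 77094986), and its exons overlap SEC14L1 on the same strand, so its counts are uncertain. Untransfected replicates had 7.62, 6.33 and 4.9 CPM. Transfected libraries ran from 2.57 to 4.42 CPM with a median of 3.67, all below the untransfected group. The log2 fold change was -0.76 ± 0.17, or 0.59-fold, with an adjusted p of 0.0073 in edgeR's test. Without untransfected replicate 1, the highest library, it was -0.60 with an adjusted p of 0.056.

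Without any overlap between 12 transfected and 3 untransfected libraries, 6 members were higher (GAS5, SNHG29, ZFAS1, SNHG8, SNHG5 and SNHG6), or 20.7%, against 5.12% of all genes. One, SNHG20, was lower (3.45%, against 5.74%).

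**Figure D1:**
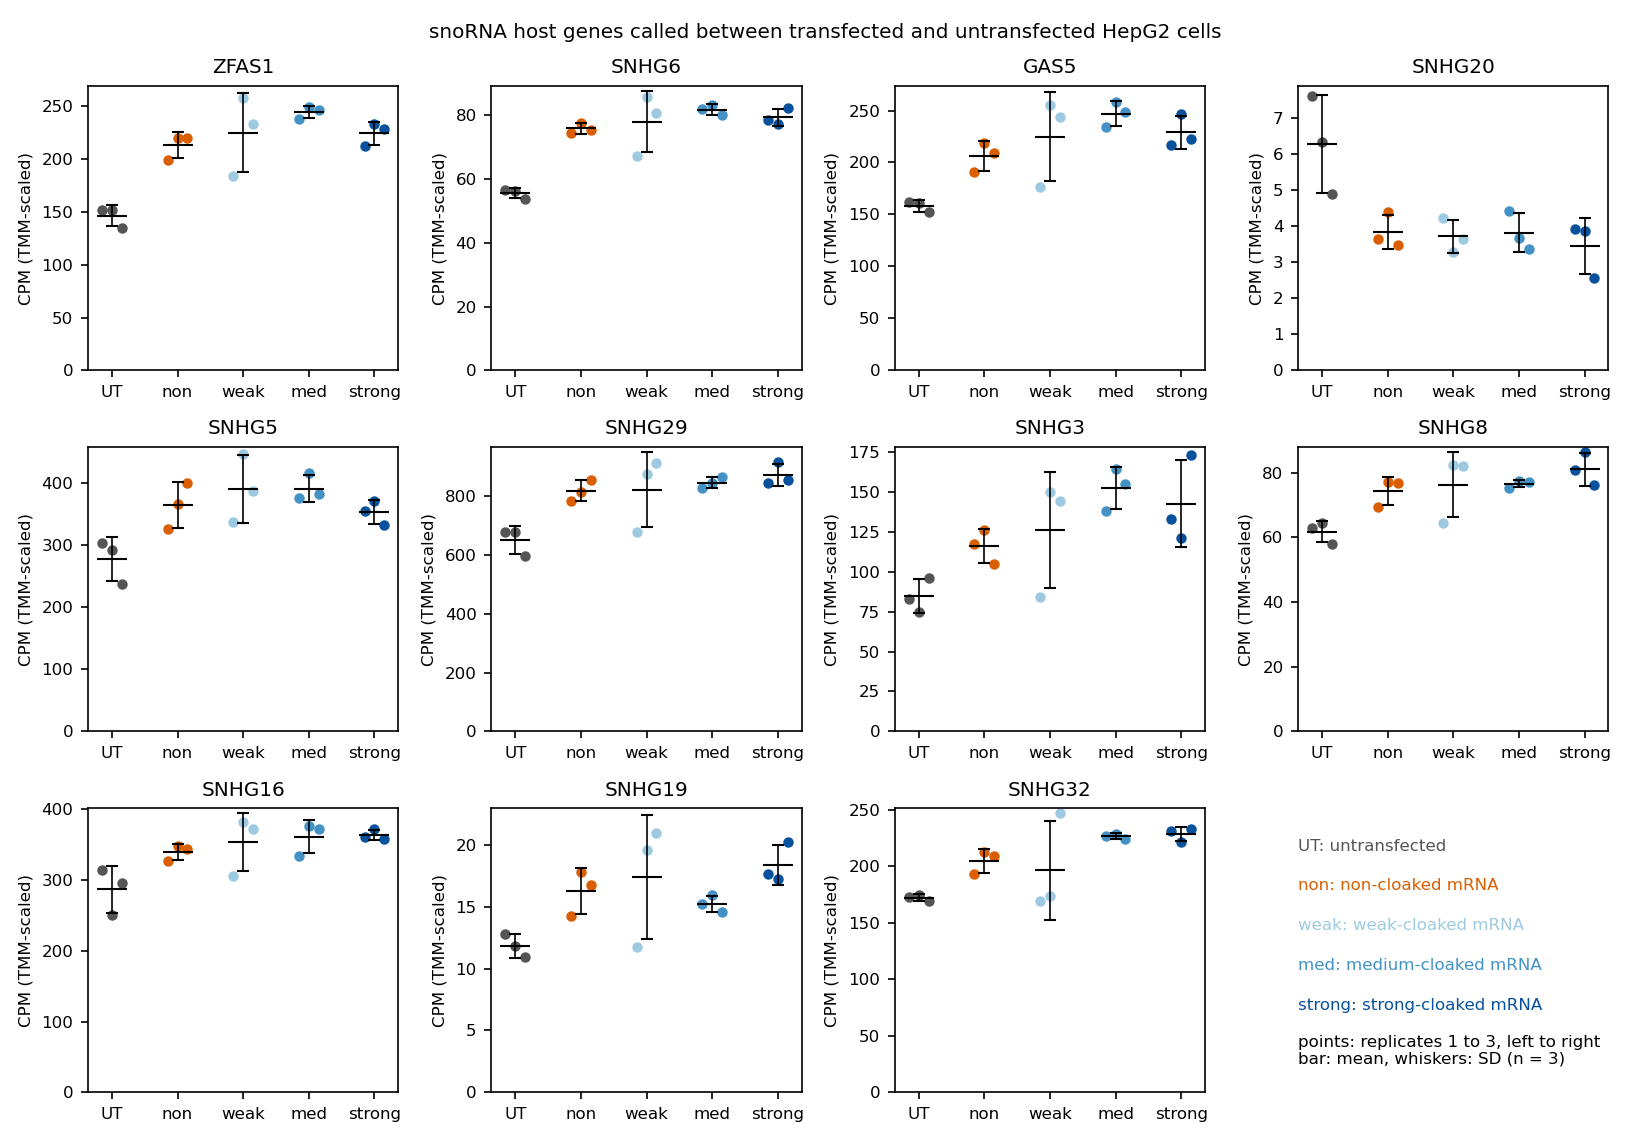
TMM-scaled CPM (vertical axis, from 0) of the 11 members called between transfected and untransfected HepG2 cells, by group (horizontal axis); points are libraries, bars the mean and SD of 3. ZFAS1 runs from 135 to 152 CPM in untransfected cells and from 184 to 258 CPM in transfected cells, and the first weak-cloaked point is the lowest transfected one for GAS5, SNHG3 and SNHG29.

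The scaling of the libraries bears on these values. The TMM factors differ between untransfected and transfected libraries, and scaling by total counts alone shifted the median log2 fold change of all genes from -0.053 to -0.278. All 10 increases kept their sign under it, but 4 stayed called (ZFAS1, SNHG6, GAS5 and SNHG3). SNHG20, SNHG14, SNHG26 and SNHG7 were then called lower, making 4 of 29 in each direction (13.8%), against 5.14% of all genes higher and 23.7% lower. Over all genes, the share of calls that were increases was 44.9% with TMM and 17.8% with total counts. It was 58.3% with offsets for transcript length and GC content, under which 9 members rose and 1 fell, and 2579 of 18380 genes in all rose. Removing an untransfected library left 7, 5 or 4 increases for replicates 1, 2 and 3. Increases over all genes fell as well, to 1105 of 18818, 915 of 18786 and 1260 of 18820. The 7 without replicate 1 are 6 of the original 10 and SNHG22, which has 0 counts in both remaining untransfected libraries. SNHG3, SNHG8, SNHG19, SNHG32 and SNHG20 lost their call without replicate 1, SNHG3, SNHG8, SNHG16, SNHG19 and SNHG32 without replicate 2, and SNHG5, SNHG8, SNHG16, SNHG19, SNHG29 and SNHG32 without replicate 3. Without weak-cloaked replicate 1, all 11 calls remained and 5 were added (16 of 29, or 55.2%, against 31.5% of all genes): SNHG21, SNHG30, DANCR and EPB41L4A-AS1 higher, and SNHG14 lower.

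The 18 members that were not called included several with a log2 fold change as large as those of called ones. DANCR, host of 1 SNORA (chromosome 4, 52712394 to 52720697), had 57.9, 45.2 and 46.8 CPM in untransfected cells. Transfected libraries ran from 48.6 to 69 CPM with a median of 60.4, so the groups overlapped. Its log2 fold change was 0.27 ± 0.12 (adjusted p 0.12, edgeR). EPB41L4A-AS1, host of 1 SNORA (chromosome 5, 112160526 to 112162501), had 15.9, 15.5 and 14.5 CPM. Transfected libraries ran from 14.9 to 25.6 CPM with a median of 20.5, and only weak-cloaked replicate 1 was within the untransfected range. Its log2 fold change was 0.42 ± 0.15 (adjusted p 0.06, edgeR).

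SNHG21 had a log2 fold change of 0.68 ± 0.24 (adjusted p 0.051, edgeR) and SNHG30 one of 0.42 ± 0.16 (0.078). SNHG1, host of the SNORD25 to SNORD31 cluster, had 51.8 ± 9.25 CPM in untransfected cells and 51.1 to 80 CPM in transfected ones, with a log2 fold change of 0.28 ± 0.13 (0.13). Its RNA did not pass the test although it was deeper than SNHG19, which did. SNHG14 is the long transcript of the Prader-Willi imprinted region that carries the SNORD115 and SNORD116 clusters. It had a log2 fold change of -0.45 ± 0.20 (0.11), with 43.5, 34.5 and 59.8 CPM in untransfected cells and 23.9 to 53.9 CPM in transfected cells. The exons of SNHG14 overlap SNRPN and UBE3A. SNHG7 (-0.08 ± 0.10), SNHG17 (0.02 ± 0.12), SNHG12 (-0.15 ± 0.15), SNHG11 (-0.19 ± 0.15), SNHG10 (0.18 ± 0.15) and SNHG15 (0.14 ± 0.20) had log2 fold changes within 0.2 of 0. SNHG26 stood at -0.33 ± 0.19.

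The rarest members were too sparse to place. SNHG25, SNHG9, SNHG31 and SNHG22 averaged 0.425, 0.403, 0.328 and 0.11 CPM over all libraries. Their log2 fold changes of 0.62 ± 0.30, 0.86 ± 0.51, 0.38 ± 0.59 and 1.09 ± 1.06 had 95% intervals that include 0. SNHG4 differed between replicates more than between groups. Untransfected replicate 1 had 3.82 CPM against 17.4 and 14.5 in the others, and weak-cloaked replicate 1 had 5.61 CPM against 21.1 and 22.3. Its exons overlap MATR3 on the same strand.

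**Figure D2:**
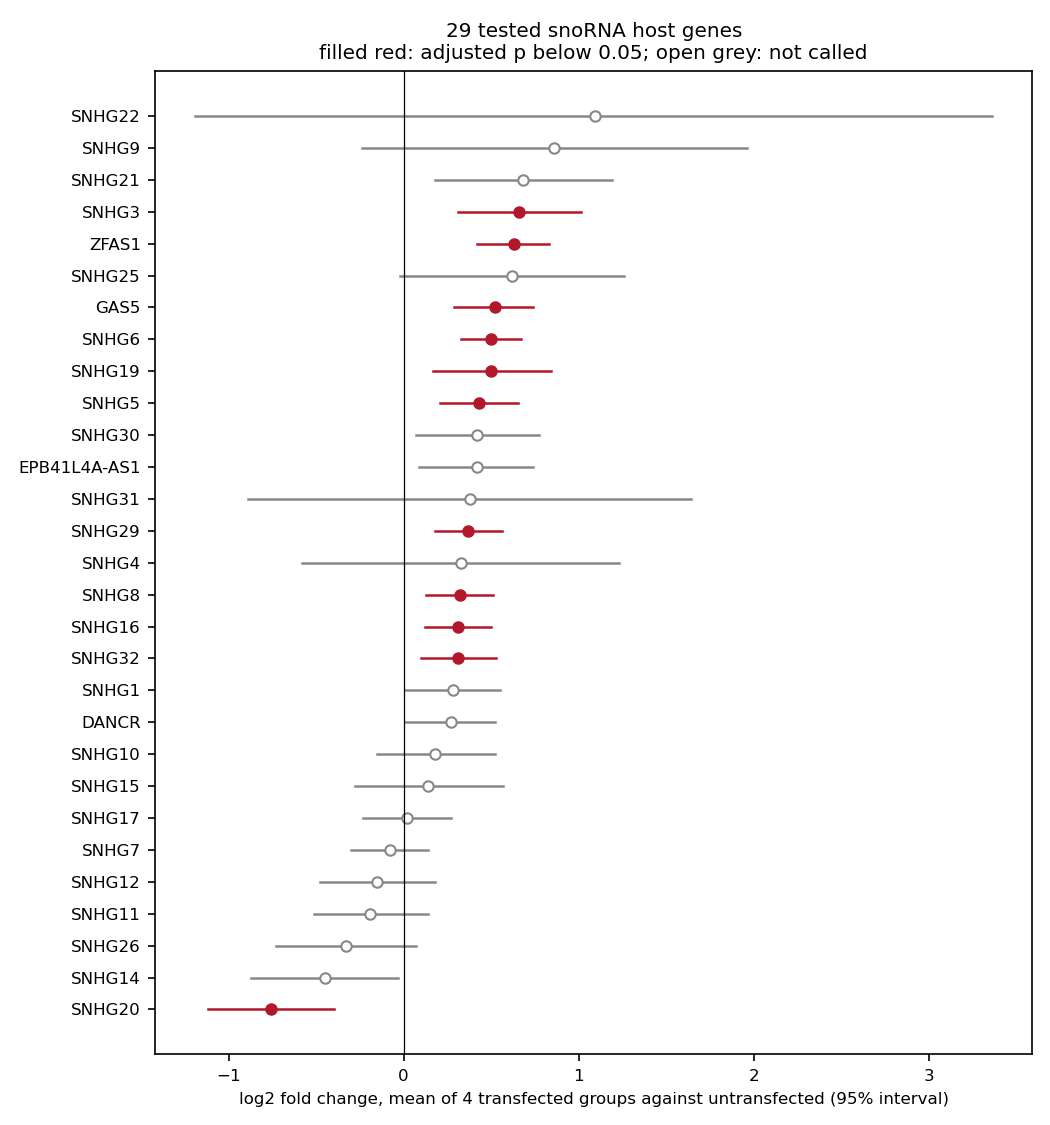
Log2 fold change of each of the 29 tested members, all 4 transfected groups averaged against the untransfected group (horizontal axis), with its 95% interval; filled red points are called and open grey points are not. Of the 29 points 23 lie above 0, SNHG20 at -0.76 is the lowest, and under total-count scaling SNHG10, SNHG15 and SNHG17 change sign.

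Each transfected group was also set against the untransfected group. These comparisons share their controls, so their lists are not independent. In non-cloaked cells 2 of 29 members were called, ZFAS1 and SNHG6 (6.9%, against 6.5% of all genes), both higher (against 3.84% of all genes higher and 2.66% lower). In weak-cloaked cells 4 were called, ZFAS1, SNHG6, GAS5 and SNHG5 (13.8%, against 3.29%), all higher (against 2.11% higher and 1.19% lower). In medium-cloaked cells 8 were called (27.6%, against 13.7%). ZFAS1, SNHG6, GAS5, SNHG3, SNHG5, SNHG29 and SNHG21 were higher (24.1%, against 6.25%), and SNHG20 was lower (3.45%, against 7.49%). In strong-cloaked cells 10 were called (34.5%, against 15.1%). ZFAS1, SNHG6, GAS5, SNHG29, SNHG3, SNHG8, SNHG19, SNHG32 and SNHG16 were higher (31%, against 7.99%), and SNHG20 was lower (3.45%, against 7.11%). The members' median log2 fold changes were 0.28, 0.34, 0.36 and 0.35 in the same order, beside -0.041, -0.035, -0.040 and -0.046 over all genes. The counts of calls differ more than the medians do. They also moved with weak-cloaked replicate 1. Without it, 10, 12, 13 and 13 members were called in the 4 groups (34.5%, 41.4%, 44.8% and 44.8%), against 16.5%, 21.3%, 20.1% and 22.3% of all genes. Without an untransfected library the counts fell to 0 for non-cloaked, 0 or 1 for weak-cloaked, 3 to 5 for medium-cloaked and 2 to 5 for strong-cloaked cells. Calls over all genes fell as well, to 235 of 18786 to 379 of 18820 for non-cloaked and 135 of 18818 to 395 of 18820 for weak-cloaked cells. They were 1034 of 18818 to 2089 of 18820 for medium-cloaked and 948 of 18786 to 1757 of 18820 for strong-cloaked cells. Leaving out non-cloaked replicate 2 or 3 also left 0 in non-cloaked cells (119 of 18851 and 185 of 18899 genes in all). In weak-cloaked cells, leaving out weak-cloaked replicate 2 or 3 left 0 (114 of 18872 and 126 of 18848 genes in all). Leaving out any library of the other 3 transfected groups left 2 (383 of 18848 to 540 of 18899). In medium-cloaked cells, leaving out medium-cloaked replicates 1, 2 and 3 left 5, 3 and 3 (1249 of 18841, 785 of 18848 and 819 of 18864). Strong-cloaked replicate 1 or 2 left 5 there (2127 of 18849 and 2067 of 18885). In strong-cloaked cells, leaving out strong-cloaked replicates 1, 2 and 3 left 5, 3 and 2 (1497 of 18849, 917 of 18885 and 728 of 18880).

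The series' own question, whether cloaking alters expression, was put to the host genes by setting every grade of cloaking against non-cloaked mRNA. No member was called in any of the 3 comparisons or in an F test across the 4 transfected groups. The background was 0.00544% (1 gene of 18380) for weak-cloaked cells and for the F test, and no gene at all for medium-cloaked and strong-cloaked cells. At an unadjusted p below 0.05, 1 member passed in weak-cloaked cells (SNHG14, log2 fold change 0.55 ± 0.26), or 3.45%, against 3.92% of all genes. None passed in medium-cloaked cells (9.5% of all genes), strong-cloaked cells (3.61%) or the F test (4.1%). DESeq2 called 0 members in each as well, where it called 19, 70, 15 and 51 genes in all for weak, medium and strong cloaking and the F test. The lowest adjusted p among the members was 0.97 for weak, 0.54 for medium and 1 for strong cloaking in edgeR's test.

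The intervals show what size of difference remains possible. For ZFAS1 the log2 difference from non-cloaked cells was 0.08 (95% interval -0.17 to 0.33) with weak, 0.20 (-0.05 to 0.45) with medium and 0.08 (-0.17 to 0.32) with strong cloaking. For SNHG29 with strong cloaking it was 0.09 (-0.14 to 0.33). GAS5 with medium cloaking stood at 0.26 (-0.01 to 0.53), and SNHG3 at 0.39 (-0.03 to 0.82). SNHG20 was close to 0 in all 3, at -0.05, -0.01 and -0.15, with intervals from -0.63 to 0.47 at the widest. SNHG4 had the lowest value, -0.83 (-1.96 to 0.30) with strong cloaking. Over the 29 members the median half-width of the interval was 0.41, so a difference of the size seen against untransfected cells could be missed for many of them. Median log2 differences were 0.06, 0.09 and 0.08, beside 0.015, -0.020 and 0.006 over all genes.

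**Figure D3:**
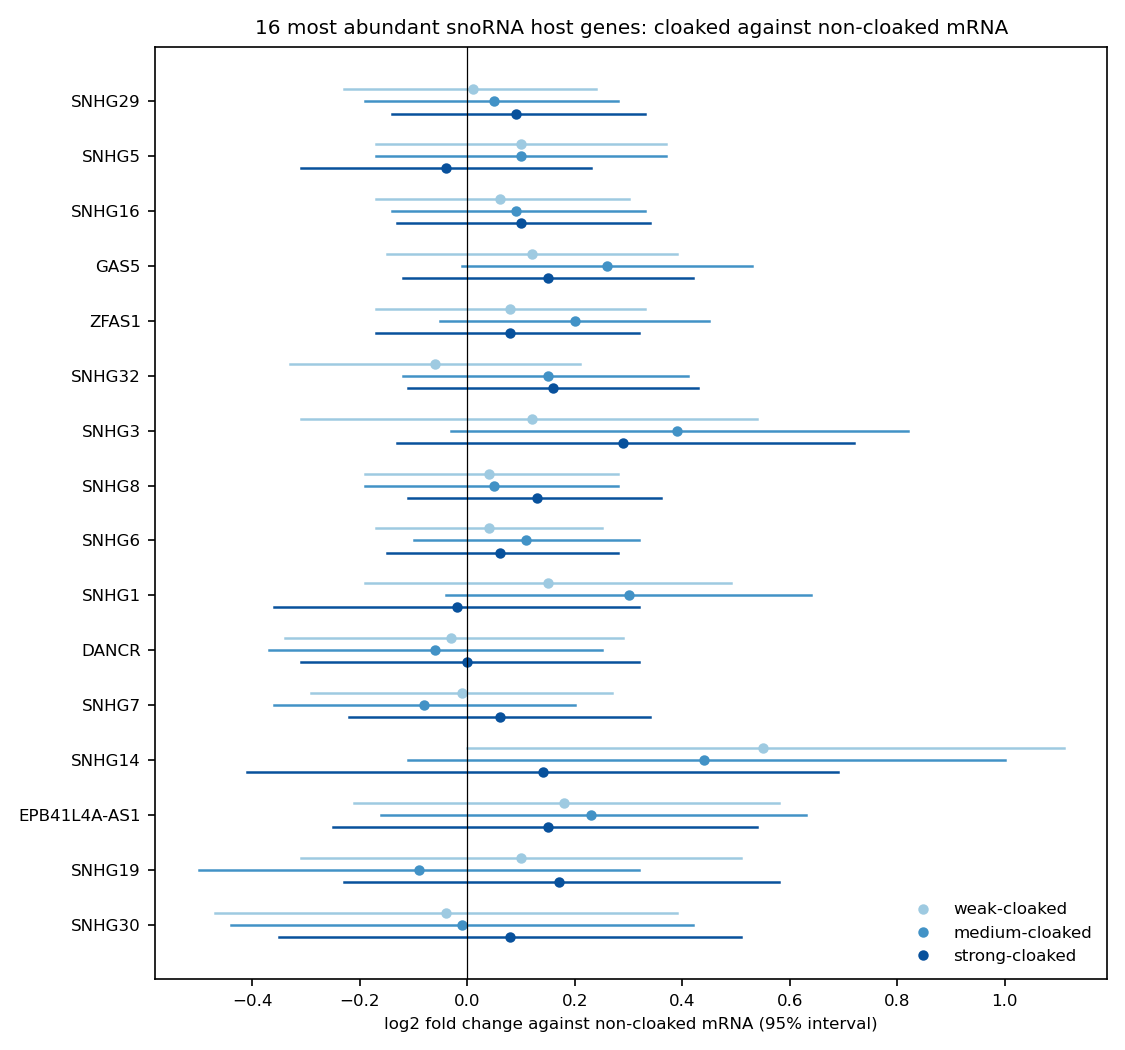
Log2 fold change of the 16 most abundant members in weak-, medium- and strong-cloaked cells against non-cloaked cells (horizontal axis, 95% intervals, colour by grade). No member was called; for ZFAS1 the 3 values lie between 0.08 and 0.20.

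Levels were compared between members after division by exon length. Per kilobase of GENCODE exons, untransfected cells held 173 CPM of SNHG29, 99 of SNHG5 and 95.6 of SNHG32. SNHG5 and SNHG32 do not differ beyond the spread of SNHG5 (SD 12.6). SNHG8 (67), ZFAS1 (65.3), SNHG16 (53.4), SNHG6 (44.5), GAS5 (43.6) and SNHG19 (34.6) followed, all in CPM per kilobase. DANCR (21.9), SNHG3 (20.7), SNHG1 (13.8) and SNHG7 (13) came next, and SNHG22 was lowest at 0.0219. The 9 members of highest level per kilobase in untransfected cells are all among the 10 that rose. SNHG3 is the other. The called members that rose had a median of 208 CPM over all libraries and a minimum of 15.8, and the 18 not called a median of 7.3. The 5 members at or above that minimum that were not called are SNHG1, SNHG14, DANCR, EPB41L4A-AS1 and SNHG7.

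What else the called members share was counted and not tested, since these features were chosen with the results known. Of the 10 that rose, 8 host at least 1 SNORD, and SNHG3 and SNHG8 host SNORAs only. Of the 18 not called, 6 host a SNORD. The longest GENCODE transcript had a median of 1064 bases in the 10 and 1998 in those not called, against 3271 over all genes tested with a length (17661, or 96.1%). Median GC content was 46.9%, 49.7% and 49.4%.

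The start windows were counted in the same way, with the letters and limits chosen with the results known, and not tested. TCTTT or CTTTT, which overlap within TCTTTT, were searched on the transcript strand between 10 bases before and 14 after the start. They were found in 6 of 28 members with a RefSeq window (21.4%) and in 1860 of 35114 promoters overall (5.3%). The 6 are ZFAS1, SNHG5, SNHG16, SNHG19, SNHG29 and SNHG32, the first 6 sequences above, and all 6 rose. GAS5, SNHG3 and SNHG8 rose as well and have a RefSeq window, but hold neither within those limits. None of the 15 uncalled members with a window holds either between those limits. In the whole window of 50 bases, the uncalled SNHG21 and SNHG26 hold one too, making 8 of 28 members (28.6%), against 9.19% of all promoters. A run of 5 or more C or T near the start is common, with 48.4% of all promoters and 21 of 28 members (75.0%). A GENCODE transcript that begins with C and at least 4 more pyrimidines exists for 9 of the 10 that rose, SNHG32 being the exception, and for 5 of 17 not called that have a GENCODE entry. Among all GENCODE transcripts 2.41% begin so, and among those of the members 13.1% (39 of 298). These 2 shares are per transcript, whereas the counts of members take any 1 transcript of a gene. The counts rise with the number of transcripts, 30 for SNHG29, and no share per gene over all genes was computed. A match of letters does not show how a transcript starts in these cells.

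**Figure D4:**
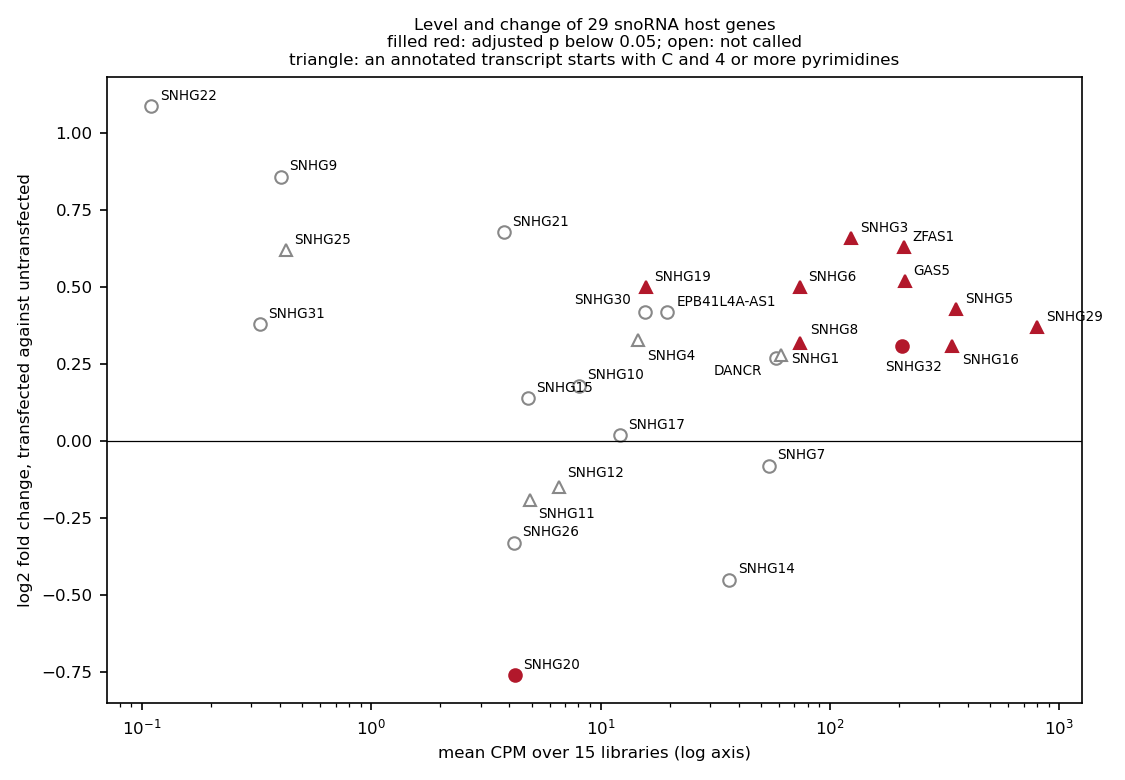
Mean CPM over 15 libraries (horizontal log axis) against the log2 fold change between transfected and untransfected cells (vertical axis) for the 29 members; red filled symbols are called, and triangles have an annotated transcript that begins with C and 4 or more pyrimidines. The 10 that rose sit at or above 15.8 CPM and 9 of them are triangles; under total-count scaling SNHG10, SNHG15 and SNHG17 change sign.

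Genes around the host genes were read from lists chosen by function. Their counts stand beside 10.4% of all genes higher and 12.7% lower. Counts given with total-count scaling stand beside 5.14% higher and 23.7% lower. Of 29 protein-coding genes that also host snoRNAs, 14 rose (48.3%) and 3 fell (10.3%, near the share of all genes), with a median log2 fold change of 0.36. With total-count scaling 5 rose and 8 fell, the median being 0.13, and none of the 17 called with TMM changed sign. The elongation factor subunit EEF1B2 rose by 0.57 ± 0.11 (adjusted p 0.004), TPT1, a growth-related 5′TOP gene, by 0.36 ± 0.08 (0.007) and ribosomal protein RPS3 by 0.49 ± 0.11 (0.0089), all on the log2 scale in edgeR's test. Nucleolin (NCL), a nucleolar protein of ribosome assembly, fell by 0.44 ± 0.10 (0.0088). Ribosomal protein genes have many processed pseudogenes, so their counts are uncertain.

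The proteins that bind and assemble snoRNAs into particles went the other way in number. Of 21 tested, 1 rose (4.76%) and 8 fell (38.1%), with a median of -0.15; with total counts none rose and 11 fell. ZNHIT6, an assembly factor of box C/D particles, had a log2 fold change of -1.30 ± 0.24 (adjusted p 0.0032, edgeR), and NOP58, a core protein of those particles, -1.71 ± 0.35 (0.0054). RPAP3, a subunit of the R2TP assembly chaperone, stood at -1.01 ± 0.23 (0.0088) and NUFIP1 at -0.68 ± 0.16 (0.0089). These 4 had means of 11.7 to 21.7 CPM in untransfected cells. NHP2, the 1 that rose, had 105 CPM there and stood at 0.5 ± 0.13 (0.018). The summed level of the 21 overlapped, at 1730 to 2010 CPM in untransfected and 1690 to 2200 CPM in transfected libraries. DKC1, called lower, and NOP56, not called, also stand in the list of protein-coding hosts. Of 19 genes of nonsense-mediated decay 3 fell (15.8%, near the share of all genes) and none rose, with a median of -0.12. The 3 were MAGOHB, of the exon junction complex, at -0.79 ± 0.15 (0.0036), and the SMG1 kinase partners SMG8 (-0.72 ± 0.20, 0.023) and SMG9 (-0.49 ± 0.15, 0.03). With total counts 8 of the 19 fell. Hepatocyte markers were 3 higher (20%) and 4 lower (26.7%) of 15, with a median of -0.09, or 1 higher and 6 lower with total counts. No gene of these lists was called between a cloaked group and the non-cloaked group.

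Of the snoRNAs themselves little can be read, because mature snoRNAs mostly lack a poly(A) tail. Of 546 snoRNA rows 40 were tested. SNORD14E (2.73 ± 0.79, adjusted p 0.025) and SNORD46 (1.38 ± 0.43, 0.033) rose in edgeR's test and none fell. These are 5.0% of the 40, below the share of all genes, and neither lies in a member of the SNHG set. The summed level of snoRNA rows was 9.9 to 10.8 CPM in untransfected and 12.6 to 20.8 CPM in transfected libraries. Of the 546 rows 73 hold exactly 1 in each of the 15 libraries, so low values there may not be plain read counts.

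Neighbouring protein-coding genes that start on the opposite strand within 5000 bases were read beside the members. ZBTB37, 665 bases from the GAS5 start, had a log2 fold change of -0.67 ± 0.31 (adjusted p 0.13) beside 0.52 ± 0.10 for GAS5. TRAF7, 424 bases from SNHG19, had 0.20 ± 0.23 (0.58), and SLC3A2, 224 bases from SNHG1, had 0.59 ± 0.24 (0.086). BARD1, 546 bases from SNHG31, fell by 0.98 ± 0.25 (0.014, edgeR).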

How the data were processed

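A single count matrix (raw read counts, rows named by gene symbol, 15 libraries) was deposited by the authors. Rows that repeat a symbol (1226) were kept apart. Per the labels' protocols, strand-specific poly(A) libraries were sequenced as 150 bp paired ends. The submitters' processing notes name HISAT2, HTSeq, DESeq2 1.46.0, R 4.4.2 and GRCh38. Annotation, strand setting and matrix filter were not given in the sources used here, so genes whose exons overlap on either strand are uncertain. Of 41412 rows, 14176 were 0 throughout.

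Counts were fitted with edgeR 4.0.16 and limma 3.58.1 in R 4.3.3: filterByExpr, TMM, robust quasi-likelihood, 1 mean per group. The common biological coefficient of variation over all genes tested was 0.344. SNHG29, the most abundant member, varied less, with SDs of 18.4 to 127 CPM on group means of 651 to 872 CPM. For members with high counts the spread between replicates, not depth, sets the precision. The rarest members, such as SNHG22 with 0 to 18 counts, are limited by depth as well. Standard errors come from the F statistic. Replicate pairs differed by more than sampling noise. Alternatives were DESeq2 1.42.0, other scalings and filters, the replicate block, the compared groups alone, each library left out and, added after seeing the data, length and GC offsets. The procedure was tested on simulated data. Annotation came from GENCODE release 29 and RefSeq (start windows for 28 of 32 members).

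Members and gene lists were chosen with earlier results of these data known. Each untransfected value, with the lowest, median and highest of the 12 transfected libraries, was given for members called between transfected and untransfected cells, the 5 of highest mean CPM, GAS5, ZFAS1, DANCR and EPB41L4A-AS1, and up to 4 called genes were named per list. SNHG1, SNHG14, SNHG4 and NHP2 were chosen for their values, and DKC1 and NOP56 were named because 2 lists hold them.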

Additional observations from a re-analysis of the deposited data

How the results depend on the processing

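In the pooled comparison (10 members higher, 1 lower), total-count scaling gave 4 higher and 4 lower, against 5.14% and 23.7% of all genes. Leaving out 1 library gave 4 to 14 higher and 0 to 2 lower. Of all genes, 2148 of 18786 (915 higher) to 5938 of 18823 (2596 higher) were then called. RLE size factors, both other filters, the replicate block (11 higher, 1 lower), DESeq2 (13 and 1) and length and GC offsets (9 and 1) stayed within 1.5 times. Of all genes, 4304 of 18380 were called with the block (1904 higher), 5131 of 17689 with DESeq2 (2422 higher) and 4423 of 18380 with offsets (2579 higher). For non-cloaked cells (2 called) the count was 1 in a fit of the 2 groups alone (1013 of 17360 genes in all) and 1 with offsets (1003 of 18380). It was 7 with DESeq2 (25.0%, against 18.0% of all genes). With 1 library left out it was 0 to 10 (119 of 18851 to 3107 of 18823 genes in all). For weak-cloaked cells (4) it was 1 with total counts (3.45%, against 3.75% of all genes) and 2 without a filter (452 of 27236 genes in all). With the 2 groups alone it was 0 (4 of 17397), and with 1 library left out 0 to 12 (114 of 18872 to 4007 of 18823). For medium-cloaked cells (8) it was 13 with DESeq2 (44.8%, against 21.0% of all genes). With 1 library left out it was 3 to 13 (785 of 18848 to 3789 of 18823 genes in all). For strong-cloaked cells (10) it was 4 with total counts (13.8%, below the 19.3% of all genes). With 1 library left out it was 2 to 13 (728 of 18880 to 4191 of 18823). Between cloaked and non-cloaked cells and in the F test, 0 members were called whichever library was left out (0 to 0). Among single members, 6 values changed sign, all uncalled: SNHG10 (-0.04), SNHG17 (-0.21) and SNHG15 (-0.09) with total counts, SNHG17 without untransfected replicate 3 (-0.05) or weak-cloaked replicate 2 (-0.01), and SNHG4 without untransfected replicate 1 (-0.10). With 1 library left out SNHG17 ran from -0.05 to 0.09 and SNHG4 from -0.10 to 0.71; the cause was not tested. Over 30 pairs of same-numbered replicates the correlation of their deviations ran from -0.06 to 0.17 with a median of 0, and 2 exceeded 0.1. Pairs with different numbers had a median of 0 as well. Whether samples of the same number were prepared together was not tested. With the replicate block the single groups had 3, 4, 8 and 9 members called, where 1424, 816, 2658 and 2958 of 18380 genes were called in all.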

Other observations

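Rows that hold exactly 1 count in every one of the 15 libraries numbered 156 of 41412. Of these, 73 were snoRNA rows and 70 microRNA rows, with 13 others, and no host gene was among them. Among rows that never exceed 1, those at 1 in all 15 libraries (156) outnumber those at 1 in 14 (33), in 13 (19) or in 12 (25). The rows of snoRNAs inside the host genes were low throughout. SNORD26, SNORD27 and SNORD28 in SNHG1 and SCARNA13 in SNHG10 each totalled 15 over the 15 libraries with no value above 1. SNORA73B in SNHG3 totalled 564, with at most 59 in a library.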
